A study of Mus musculus with 2 samples.

Results

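Nuclear receptors are the transcription factors through which the liver reads bile acids, oxysterols, fatty acids, retinoids, thyroid hormone, glucocorticoids and foreign compounds. A set of 37 genes of this family, without the Rev-erb receptors Nr1d1 and Nr1d2, was followed in the regenerating mouse liver. The members were the rows of the expression table that carried these 37 gene symbols, out of 34745 genes in all. Liver RNA-seq compared miR-182-5p KO with wild-type (WT) mice, with 1 library per genotype. Both groups were male mice of 8 to 10 weeks that had lost 70% of the liver by 2/3 partial hepatectomy (PH) in the early morning, and the study's text places the libraries at day 3 after surgery. The KO mice were heterozygous for the miR-182-5p deletion (miR-182-5p+/−), so the microRNA was reduced and not removed. How many mice went into a library was not given in the sources used here. The study used these libraries to ask how hepatic miR-182-5p acts on stellate cells.

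Nuclear receptors bind DNA as monomers, as homodimers or as heterodimers with a retinoid X receptor (RXR). A bound ligand exchanges corepressors such as Ncor1 for coactivators of the Ncoa family. Hepatocytes use them to set lipid, bile acid and drug metabolism, with HNF4 alpha (Hnf4a) holding up hepatocyte identity and FXR (Nr1h4) acting as the bile acid sensor. FXR induces the small heterodimer partner SHP (Nr0b2), a receptor without a DNA-binding domain that represses Cyp7a1, the rate-limiting enzyme of classic bile acid synthesis, in concert with LRH-1 (Nr5a2).

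The microRNA itself is not a product that libraries of poly(A) RNA measure, and the genotype was not checked against it here. Its mature sequence is shown because the mRNAs it can pair with are read from it, with the seed (bases 2 to 8, in capitals) and position chr6:30165962-30165986 on the minus strand of GRCm38.p6, from RefSeq. Below it stand the 5 sites in the 3′ UTRs of members that match the seed, in capitals, with 11 bases on either side, from the GENCODE M21 transcripts (GRCm38).
mmu-miR-182-5p: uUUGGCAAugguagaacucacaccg
Rarg: agctcgttattTTGCCAAAgtttctagggg
Nr5a2: cgtgttaaacaTTGCCAAAtgaaggaaagg
Nr2f2: aggagatcagtTTGCCAAgtgcattcaac
Esr1: cattgcttaccTTGCCAAtttgattctgg
Nr6a1: gagcccattcaTTGCCAAgagccctgcag
The 8-base match TTGCCAAA was in 2 of the 33 members measured (6.06%), Rarg (chromosome 15) at bases 118 to 125 and Nr5a2 (chromosome 1) at bases 993 to 1000 of the 3′ UTR. It was in 690 of 12537 measured genes with a 3′ UTR (5.50%). The 7-base match TTGCCAA, which the longer match contains, was in 5 of the 33 members (15.2%) and in 13.4% of those genes. The 3 members with the shorter match alone held it at bases 2348 to 2354 (Nr2f2, chromosome 7), 2956 to 2962 (Esr1, chromosome 10) and 2167 to 2173 (Nr6a1, chromosome 2). The share of members with a match was thus close to that of all genes, and the members' median 3′ UTR was longer, 1561 against 1308 bases.

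The KO library held 13247497 counts and the WT library 13163348, of which 51.7% and 31.0% came from mitochondrial genes. Libraries were therefore scaled by TMM, a scaling on the bulk of the genes, which left the median gene at a log2 fold change of 0.00. Scaling by total counts instead moved the median of all genes by -0.60, and every difference below is relative to the bulk of the genes. With 1 library per genotype no difference has a replicate check and no p-value is given. The 95% intervals cover counting error only. Of the 13561 genes whose counts in KO and WT summed to 10 or more, 1283 (9.46%) were at least 2-fold higher in KO and 1348 (9.94%) at least 2-fold lower. Intervals lay wholly above 0 for 25.8% of these genes and wholly below 0 for 26.2%. These shares of all genes are the background for the calls in every list below. Of 11 hepatocyte markers tested, 10 were within 2-fold and Apob alone was past it, with 1517 counts in KO and 17808 in WT.

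Of the 37 nuclear receptors, 33 reached 10 counts, and Vdr (the vitamin D receptor), Hnf4g, Pgr (the progesterone receptor) and Nr4a3 had no count in either library. A count of 0 allows up to 3 counts in each library. Among the 33, 4 were at least 2-fold higher in KO (12.1%, against 9.46% of all genes) and 3 at least 2-fold lower (9.09%, against 9.94%). The 4 were Nr1h4, Nr0b2, Nr4a2 and Nr2f1, and the 3 were Rora, Pparg and Nr4a1. The other 26 were within 2-fold, and the median log2 fold change of the 33 was -0.02. Intervals lay above 0 for 10 members (30.3%, against 25.8%), below 0 for 8 (24.2%, against 26.2%), and held 0 for 15. The median of the receptors thus lay at that of all genes, and their share past 2-fold was near the background.

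**Figure D1:**
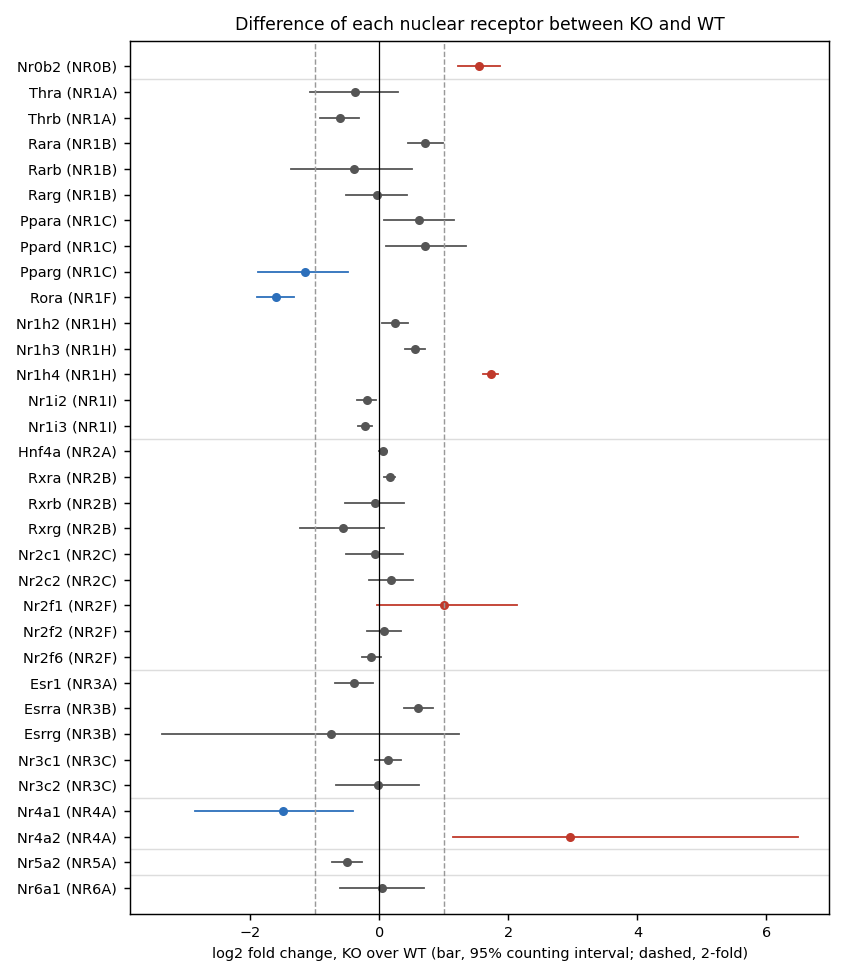
The log2 fold change (KO over WT, x axis) of the 33 nuclear receptors with at least 10 counts, ordered by subfamily, with horizontal bars for the 95% counting interval and dashed lines at 2-fold. Members past 2-fold are red (higher in KO) or blue (lower); Nr1h4 at 1.72 and Rora at -1.60 have short bars, while Nr4a2, at 2.96, has the widest of those past 2-fold.

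Levels were compared between genes per length, as FPKM divided by the library's TMM factor. In WT, 20 members reached a level of 1, 8 a level of 5 and 5 a level of 10. The order was led by Hnf4a at 34.4, then Nr1i2 (PXR, the receptor for many drugs and steroids) at 25.5, Nr1h4 at 17.8, Rxra at 17.3 and Nr1i3 (CAR, the other xenobiotic receptor) at 12.9. Nr2f6, an orphan repressor, followed at 9.66, Nr1h3 (LXR alpha, the oxysterol receptor) at 8.35 and Nr0b2 at 6.70. Neighbours in that order differed beyond their counting intervals except Nr1h4 and Rxra, and Nr1h3 and Nr0b2. Below a level of 2 nearly all neighbours overlapped.

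In KO the order was led by Nr1h4 at 58.8, ahead of Hnf4a at 35.7, Nr1i2 at 22.2, Nr0b2 at 19.6 and Rxra at 19.3. Nr0b2 thus went from rank 8 to rank 4, and Nr1h4 from rank 3 to rank 1. The 10 highest members of each library shared 9 genes. These 10 carried 84.7% of the members' summed level in WT. Nr1h4 alone made up 10.7% of the FPKM of all 37 members in WT and 26.4% in KO, and this share does not depend on how the libraries were scaled. At the other end, Rora went from rank 14 to 20 and Pparg from rank 18 to 25.

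**Figure D2:**
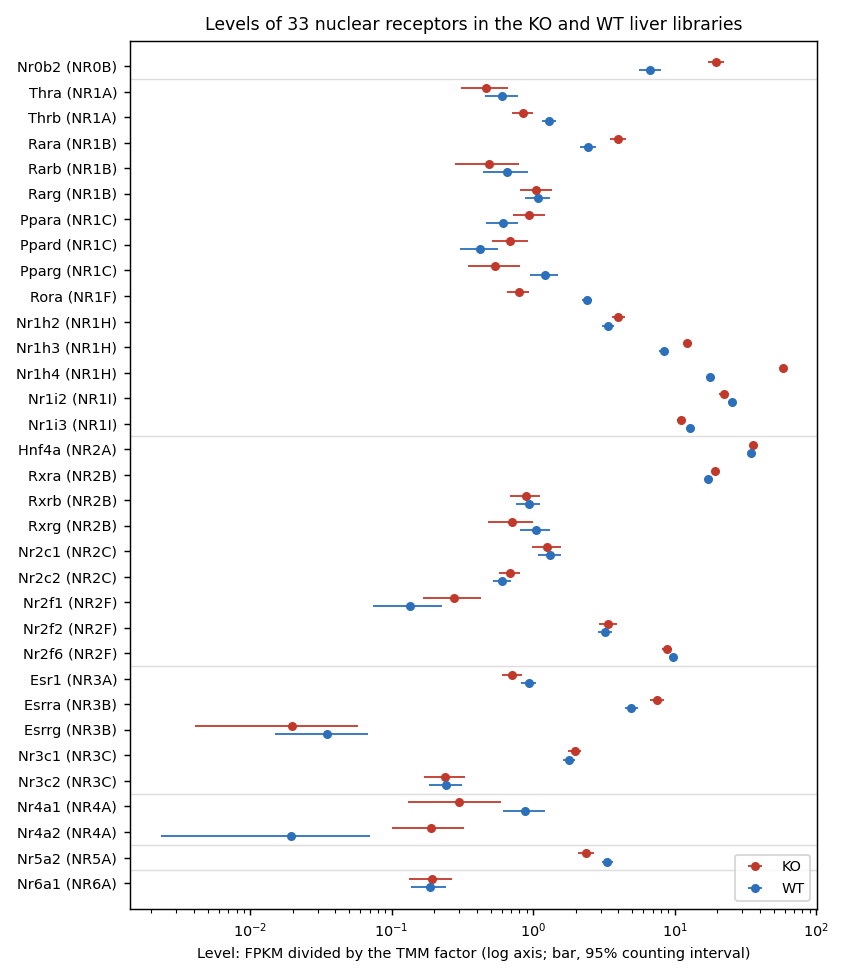
Level of each nuclear receptor with counts (FPKM divided by the TMM factor, log axis) in the KO library (red) and the WT library (blue), ordered by subfamily, with bars for the 95% counting interval. Points span from 0.02 (Nr4a2 in WT and Esrrg in KO) to 58.8 (Nr1h4 in KO), and Nr1h4, Nr0b2 and Rora are among the pairs whose bars stand clear of each other.

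The bile acid receptor had the most counts of the members past 2-fold. Nr1h4 (chr10:89454234-89533585, minus strand) had 1998 counts in KO and 911 in WT, or 47.7 and 21.9 FPKM. Its log2 fold change was 1.72 (95% interval 1.61 to 1.84), a 3.31-fold higher level in KO. Nr0b2 (chr4:133553376-133556536, plus strand), its target and partner in repression, had 238 counts in KO and 123 in WT, or 15.9 and 8.25 FPKM. The log2 fold change was 1.54 (1.22 to 1.87), or 2.91-fold. Nr5a2 (LRH-1), the activator that SHP restrains, had 226 counts in KO and 480 in WT and was within 2-fold at -0.49 (-0.73 to -0.26). The FPKM ratio of Nr0b2 to Nr5a2 was therefore 8.23 in KO and 2.00 in WT, a ratio of ratios of 4.11 that no scaling of the libraries can alter. Under total counts Nr1h4 remained past 2-fold at 1.12, Nr0b2 stood just short of it at 0.94, and Nr5a2 became a call, lower at -1.09.

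The targets of FXR did not all follow the receptor. Besides Nr0b2, Abcb11 (the bile salt export pump) was higher, with 5069 counts in KO and 2487 in WT and a log2 fold change of 1.62 (1.55 to 1.69). Cyp8b1 (sterol 12 alpha-hydroxylase, needed for cholic acid), a gene that FXR signalling is known to repress, was also higher, at 1.29 (1.05 to 1.54). Slc51b, a subunit of the basolateral bile acid exporter that FXR induces, was lower, with 12 counts in KO and 56 in WT and a value of -1.60 (-2.67 to -0.71). Its partner Slc51a had no count. Cyp7a1 was within 2-fold at -0.85 (-1.04 to -0.67), with 326 and 887 counts, and past it under total counts, at -1.45, an alternative added after its values were seen. In all, 3 of the 9 targets measured were higher, 1 was lower, and their median was -0.11, beside 0.00 over all genes. Without the member Nr0b2, 2 of 8 were higher and 1 was lower, with a median of -0.23. Genes that FXR induces and genes that it represses are pooled here, so the median does not show whether targets followed the receptor. Of the 5 targets of LRH-1 measured, which share Nr0b2, Cyp8b1 and Cyp7a1 with the FXR list, 2 were higher and none lower.

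The promoters of the pair are shown because both genes were higher in KO. They are RefSeq windows of 250 bases before to 50 bases after a transcription start (GRCm38.p6), for Nr0b2 at chr4:133553126-133553425 on the plus strand and for Nr1h4 at chr10:89506609-89506908 on the minus strand. The Nr1h4 window belongs to a start inside the gene, and which start the liver used was not tested. Capitals mark the E-box CACGTG, the site of the clock activators, in Nr0b2 and the reverse complement of the receptor core motif AGGTCA in Nr1h4.
Nr0b2: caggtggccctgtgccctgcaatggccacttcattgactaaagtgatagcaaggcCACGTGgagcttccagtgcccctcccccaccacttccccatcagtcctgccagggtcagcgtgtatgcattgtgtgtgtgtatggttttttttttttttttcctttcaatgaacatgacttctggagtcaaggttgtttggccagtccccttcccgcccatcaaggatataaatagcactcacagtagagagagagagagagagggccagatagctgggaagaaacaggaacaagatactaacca
Nr1h4: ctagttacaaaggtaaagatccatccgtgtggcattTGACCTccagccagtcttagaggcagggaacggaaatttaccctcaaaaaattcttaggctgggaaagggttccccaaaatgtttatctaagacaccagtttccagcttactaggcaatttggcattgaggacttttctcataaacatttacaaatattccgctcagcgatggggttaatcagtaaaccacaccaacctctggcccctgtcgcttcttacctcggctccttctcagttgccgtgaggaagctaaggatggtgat
Both strands of 53 promoters of 34 members were searched. The E-box was in 5 of them (9.43%), of Nr0b2, Nr1i3, Rara and Thrb, and in 7.15% of 32851 promoters of all genes. The core motif AGGTCA was in 10 (18.9%), against 16.3% of all promoters. The ROR element TAGGTCA, which contains the core motif, and the D-box TTATGTAA were in none, against 2.61% and 0.938% of all promoters. A match describes these letters and not a bound site.

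The oxysterol receptors were both within 2-fold. Nr1h3 had 684 counts in KO and 702 in WT, a log2 fold change of 0.55 (0.40 to 0.71), and Nr1h2 (LXR beta) had 374 and 477, or 0.24 (0.04 to 0.44). Both values turned negative under total counts, at -0.05 and -0.36. The ratio of Nr1h3 to Nr1h2 FPKM was 3.07 in KO and 2.47 in WT. Of 10 LXR targets measured, none was higher and 2 were lower. The list includes Nr1h3 itself, and without it 2 of 9 were lower. The lower genes were Scd1 (stearoyl-CoA desaturase) at -1.43 (-1.46 to -1.40) and Mylip at -1.46, with 7 and 30 counts. Mylip drives breakdown of the LDL receptor. The sterol exporters Abca1, Abcg1, Abcg5 and Abcg8 lay between -0.18 and 0.36.

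The xenobiotic receptors were within 2-fold, while several of their targets were not. Nr1i2 had 610 counts in KO and 1055 in WT, with a log2 fold change of -0.20 (-0.34 to -0.05). Nr1i3 had 1028 and 1809 counts, with -0.22 (-0.33 to -0.11). The pair kept its proportions: Nr1i2 made up 66.7% of the FPKM of its subfamily in KO and 66.3% in WT. Nr1i3 shares 3304 exonic bases with the antisense gene Tomm40l (184 and 266 counts), and without a stated strand reads of that pair cannot be told apart. The FPKM ratio of Nr1h4 to Nr1i2 was 0.70 in WT and 2.64 in KO.

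Among the 8 PXR targets measured, 5 were lower in KO and none was higher (all genes, 9.94% and 9.46%), and the median was -1.18. They included Cyp3a11, the main drug-oxidising cytochrome P450 of the list, with 12443 counts in KO and 51743 in WT (-1.46, interval -1.49 to -1.44), and the uptake transporter Slco1a4 at -1.57 (-1.79 to -1.37). Among the 7 CAR targets measured, 4 were lower and 1 was higher, beside the same shares of all genes, and the median was -1.08. Cyp2b10, the classic CAR target, had no count in KO and 33 in WT, at least 7.30-fold lower against a floor of 3 counts. Cyp2c55 had 28 and 358 counts (-3.07), and Gstm3, a glutathione transferase, 1084 and 10258 (-2.65). Ugt1a1, which conjugates bilirubin, was the one that was higher, at 1.51 (1.39 to 1.62). Gsta1, Ugt1a1 and Gstm3 shared 89.6%, 58.1% and 28.4% of their 51-base words with other transcripts, so their counts depend on how shared reads were split.

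**Figure D3:**
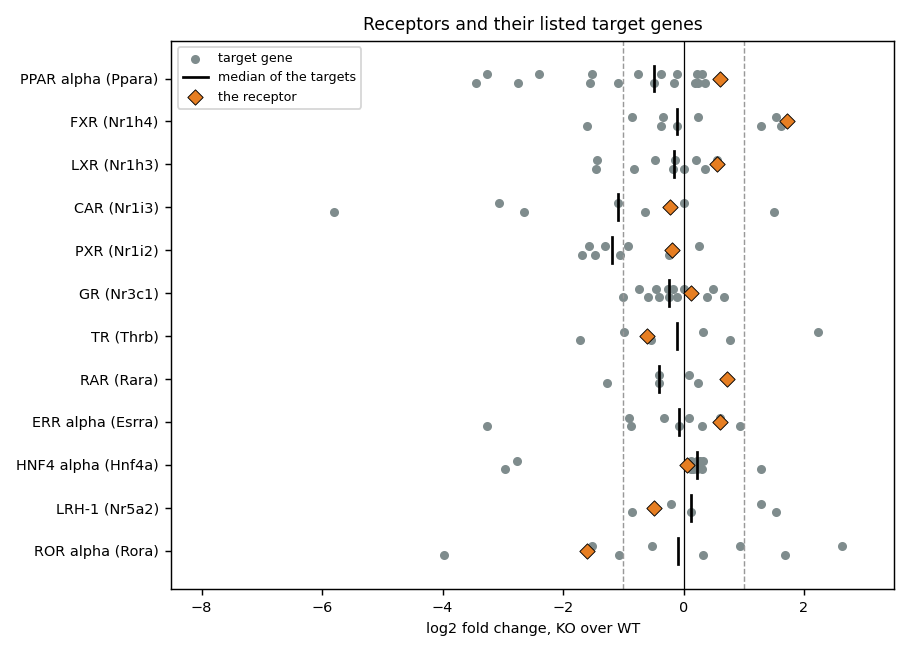
Log2 fold change (KO over WT, x axis) of 12 receptors (orange diamonds) and their listed target genes with at least 10 counts (grey points). Black lines mark the median of each target list, and dashed lines mark 2-fold. Grey points include Nr1h3 for LXR, Esrra for ERR alpha and Rarb for RAR. The medians of the PXR and CAR targets lie at -1.18 and -1.08 while the receptors lie at -0.20 and -0.22, and the FXR diamond at 1.72 stands right of all its targets; Cyp2b10, at the far left, has no count in KO and its plotted place depends on the prior count.

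Of the fatty acid receptors, 1 of 3 was past 2-fold. Ppara, the fasting receptor of hepatocytes, had 61 counts in KO and 60 in WT, a log2 fold change of 0.61 (0.08 to 1.15). Ppard, its widely expressed relative, had 48 and 44, or 0.71 (0.10 to 1.34). Under total counts Ppara came down to 0.01 and Ppard to 0.11. Pparg (chr6:115360951-115490399, plus strand), the lipid-storage receptor, had 24 and 81, or -1.15 (-1.88 to -0.49), a 2.22-fold lower level. In FPKM shares, which need no scaling, Pparg made up 53.9% of the subfamily in WT and 24.8% in KO, and Ppara 27.3% and 43.2%. The ratio of Ppara to Pparg differed 3.43-fold between the libraries, with an interval of 0.94 to 2.61 on the log2 scale.

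**Figure D4:**
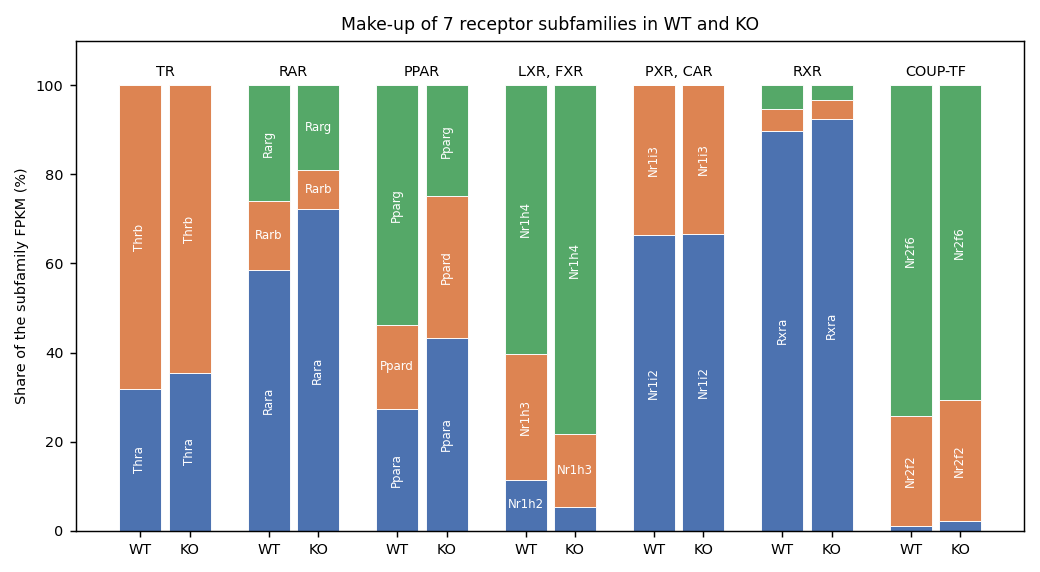
Share of the subfamily's FPKM (y axis, percent) that each member carried in the WT and the KO library, for 7 subfamilies, as stacked bars. Pparg goes from 53.9% to 24.8% of its bar and Nr1h4 from 60.2% to 78.3%, while no receptor in the bars of PXR with CAR and of the RXRs changes by as much as 3 percentage points.

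Of the 17 PPAR alpha targets measured, 7 were lower in KO and none was higher (all genes, 9.94% and 9.46%), and the median was -0.48. The omega-hydroxylases Cyp4a14 (121 counts in KO, 1985 in WT), Cyp4a31 and Cyp4a10 had log2 fold changes of -3.44, -2.74 and -1.52. Pdk4, the kinase that shuts off pyruvate dehydrogenase, had 15 and 221 counts (-3.25, interval -4.15 to -2.54), and the peroxisomal enzyme Ehhadh 346 and 1532 (-1.55). Acot1 and Acot2, acyl-CoA thioesterases, were lower at -2.40 and -1.08. Cpt1a, which admits fatty acids to mitochondria, was at 0.30, and Acadm, a dehydrogenase of their oxidation, at -0.48. Cyp4a10, Cyp4a31, Acot1 and Acot2 shared between 18.7% and 29.9% of their words with near copies.

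Pparg is also made by stellate cells and macrophages, and their markers were measured beside it. Of 13 stellate markers, 3 were lower (Hgf, Acta2 and Col1a1), none was higher, and the median was -0.52, with a summed level of 51.6 in KO and 70.3 in WT. Of 9 Kupffer cell and macrophage markers, 2 were lower (Adgre1 and Marco), none was higher, and the median was -0.31, with a summed level of 67.1 and 99.8. Among all genes, 9.94% were lower and 9.46% higher. No marker of either list was at 0. A negative median was not particular to these lists. Of 10 endothelial markers, 2 were lower and 0 higher, with a median of -0.42, and the erythroid median was -0.59. The medians of cholangiocyte, lymphocyte and neutrophil markers were positive, at 0.40, 0.38 and 0.38. The part of any of these cell types in the Pparg value was not tested. In whole liver, fewer cells of a type and less RNA per cell cannot be told apart.

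Rora was the best-counted of the lower members. Rora (chr9:68653786-69388246, plus strand), the ROR alpha receptor that drives Arntl from ROR elements, had 126 counts in KO and 576 in WT, or 0.64 and 2.94 FPKM. The log2 fold change was -1.60 (-1.89 to -1.32), a 3.03-fold lower level. The Rev-erbs, which repress from the same elements, were higher in KO, with 534 and 129 counts for Nr1d1 (2.64) and 507 and 320 for Nr1d2 (1.25). Of 8 ROR alpha targets measured, 3 were lower (Arntl with 50 and 218 counts, Npas2 with 2 and 56, and Avpr1a), and 2 were higher (Cyp7b1 at 1.69 and Nr1d1). Npas2 had a log2 ratio of -3.97, with an interval from -7.30 to -2.29.

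Clock genes were measured beside Rora. Of 15 clock genes, 6 were higher in KO (Nr1d1, Nr1d2, Dbp, Per2, Per3 and Ciart) and 2 were lower (Arntl and Npas2). Among all genes, 9.46% were higher and 9.94% lower. The other 7 clock genes were within 2-fold, and the median of the 15 was 0.81. Dbp, a D-box activator that swings strongly over the day, had 462 counts in KO and 62 in WT (3.48, interval 3.10 to 3.90). Some receptors outside the clock itself, such as Ppara and Nr0b2, are known to be rhythmic in mouse liver. The hour at which each liver was taken was not given in the sources used here, so genotype and time of day cannot be told apart for these genes.

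The thyroid hormone receptors both had negative values within 2-fold. Thrb, the main hepatic form, had 131 counts in KO and 302 in WT, a log2 fold change of -0.61 (-0.92 to -0.31) that passed 2-fold under total counts, at -1.21. Thra had 29 and 57, or -0.38 (-1.08 to 0.29). Thra shares 263 exonic bases with Nr1d1 on the other strand, and the Nr1d1 counts went the other way. Of 6 targets, Dio1 (the deiodinase that makes active thyroid hormone) was higher, with 645 and 206 counts (2.24, interval 2.01 to 2.47). Hr, a corepressor gene, was lower with 6 and 31 counts (-1.71, interval -3.33 to -0.49), and Thrsp and Me1, genes of lipid synthesis, were at -0.55 and -0.99.

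The retinoic acid receptors had 1 positive and 2 negative values, and the intervals of the 2 negative ones held 0. Rara had 245 counts in KO and 225 in WT, a log2 fold change of 0.71 (0.45 to 0.98) that came down to 0.11 under total counts. Rarg had 64 and 99, or -0.04 (-0.51 to 0.43), and Rarb 16 and 32, or -0.40 (-1.37 to 0.50). Rarb, a retinoid-induced gene found in stellate cells, overlaps Top2b by 1793 exonic bases on the other strand. None of the 3 was past 2-fold, and Rara made up 72.1% of their FPKM in KO and 58.4% in WT. Of 5 targets measured, Rarb itself among them, the retinoic acid hydroxylase Cyp26b1 was lower, with 13 and 48 counts (-1.27). Its hepatic relative Cyp26a1 was at 0.25 with an interval that held 0.

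Rxra, the heterodimer partner of several of the receptors above, had 1721 counts in KO and 2325 in WT. Its log2 fold change of 0.16 (0.07 to 0.25) became -0.44 under total counts. It made up 92.4% of the RXR FPKM in KO and 89.8% in WT. Rxrb had 67 and 106 counts (-0.07) and Rxrg, a form usually found in muscle and brain, 31 and 69 (-0.56, interval -1.22 to 0.07). Hnf4a had the most counts of any member, 3168 and 4601, and its value of 0.05 had an interval of -0.01 to 0.12. Of its 11 targets, Apob (-2.96) and Apoa4 (-2.77), both apolipoproteins, were lower and Cyp8b1 was higher, and the other 8 lay between 0.12 and 0.32.

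The remaining orphans of the NR2 group were near 0 with 1 exception. Nr2c1 and Nr2c2, the testicular receptors, were at -0.07 and 0.18, Nr2f2 (COUP-TFII) at 0.07 and Nr2f6 at -0.12. Nr2c2 overlaps Mrps25 by 4590 exonic bases on the other strand and shares 9.90% of its 51-base words with the predicted gene Gm42933, the highest share of any member. Nr2f6 and Nr2f2 overlap antisense genes by 1622 and 643 exonic bases. The exception was Nr2f1 (COUP-TFI, chr13:78188973-78199757, minus strand), with 19 counts in KO and 14 in WT. Its log2 fold change of 1.00 only just reached 2-fold and its interval, -0.04 to 2.14, held 0. It fell short of 2-fold with DESeq2 size factors, with total counts, whether or not mitochondrial genes were counted, and with a prior count of 5.

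The steroid receptor group held no call. Nr3c1, the glucocorticoid receptor, had 354 counts in KO and 487 in WT, a log2 fold change of 0.13 (-0.07 to 0.33). Nr3c2, the mineralocorticoid receptor, had 36 and 55 (-0.02), and Esr1, the oestrogen receptor, 145 and 287 (-0.39, interval -0.69 to -0.10). Esrra, the ERR alpha receptor of mitochondrial genes, had 330 and 327 counts, a value of 0.60 (0.38 to 0.83) that came down to 0.00 under total counts. Esrrg had 3 and 8 counts, and its log2 ratio of -0.75 had an interval of -3.37 to 1.24. Of 13 glucocorticoid targets, Fkbp5 alone passed 2-fold, at -1.01 (-1.32 to -0.71), with 122 and 370 counts. Of 9 ERR alpha targets, Esrra itself among them, Pdk4 alone passed 2-fold. Cycs (cytochrome c) was at 0.94 and Atp5b, a subunit of ATP synthase, at -0.90.

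The NR4A receptors, which are induced within minutes by stress and growth signals, had few counts. Nr4a1 (NUR77, chr15:101266846-101274792, plus strand) had 8 counts in KO and 35 in WT, a log2 fold change of -1.49 (-2.86 to -0.40). Nr4a2 (NURR1, chr2:57106830-57124003, minus strand) had 13 and 2, a log2 ratio of 2.96 with an interval of 1.15 to 6.48. Nr4a3 had none. Of 14 other immediate-early genes measured, 3 were lower (Egr1, Atf3 and Btg2) and 2 were higher (Fos and Ier3). The shares of all genes were 9.94% lower and 9.46% higher. Fos had 30 and 5 counts, and the interval of Ier3 held 0. The median of the 14 was -0.60, and 12 values were negative. Intervals lay wholly below 0 for 11 of them (26.2% of all genes) and above 0 for 1 (25.8%). The germ cell nuclear factor Nr6a1 had 35 and 51 counts and a value of 0.05.

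**Figure D5:**
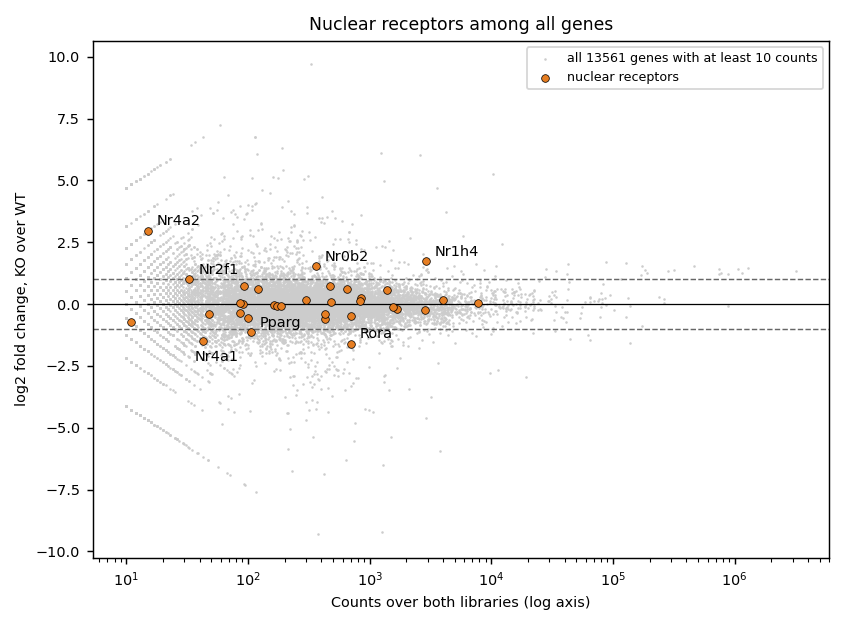
The log2 fold change (KO over WT, y axis) against the summed counts of KO and WT (log axis) for all 13561 genes tested (grey) and the 33 nuclear receptors (orange, named where past 2-fold, dashed lines). Nr4a2, Nr2f1 and Nr4a1 lie at low counts where grey points spread widely, and Nr1h4, Nr0b2 and Rora lie at counts where most genes are within 2-fold.

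Members with a seed match for miR-182-5p were all within 2-fold, as were 10930 of all 13561 genes tested. The 5 with the 7-base match, Rarg, Nr5a2, Nr2f2, Esr1 and Nr6a1, ran from -0.49 to 0.07 with a median of -0.04. The 28 without it ran from -1.60 to 2.96 with a median of 0.02. Ranges of 5 and of 28 members are not comparable. The 2 with the 8-base match were Rarg at -0.04 and Nr5a2 at -0.49. None of the 7 members past 2-fold held either match. The 7-base match was in 13.4% of all measured genes with a 3′ UTR, so 7 members are too few to show a difference.

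Of 15 coactivators and 10 corepressors, all measured, 2 were higher in KO and 2 were lower, and the median was 0.21. Among all genes 9.46% were higher and 9.94% lower, so these calls did not exceed the background. Ncor1, a main corepressor, was at 0.70 (0.52 to 0.87), and Hdac3, the deacetylase it recruits, at -0.46. Tbl1x, a subunit of the same complex, had 155 counts in KO and 6 in WT, a log2 fold change of 5.15 (4.13 to 6.75). Carm1, an arginine methyltransferase, was higher, with 45 and 22 counts (1.60), and Prmt1, of the same enzyme class, was lower, with 33 and 138 (-1.46, interval -2.07 to -0.92). Ncoa7 was lower with 5 and 32 counts (-2.00, interval -3.80 to -0.72). Ppargc1a, the inducible coactivator of ERR alpha and PPAR alpha, had 35 and 67 counts (-0.34, interval -0.98 to 0.27).

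Genes that supply or remove ligands were mostly within 2-fold. Of 11 measured, Dio1 was higher and Cyp26b1 lower. Hsd11b1, which regenerates glucocorticoid, was at 0.24 (0.12 to 0.36), Cyp27a1, which makes oxysterols and bile acids, at -0.15 (-0.22 to -0.07), and Aldh1a1, which makes retinoic acid, at -0.52 (-0.57 to -0.47). Under total counts Hsd11b1 was at -0.36, Cyp27a1 at -0.75 and Aldh1a1 at -1.12. The paper reports Cyp27a1, with Cyp7a1, as greatly lower in KO from its RNA-seq and from qRT-PCR, unlike the small TMM value of Cyp27a1 here. Of the vitamin D axis, Cyp24a1, the only listed target of Vdr, had no count, as Vdr had none, and Cyp2r1, the vitamin D 25-hydroxylase, was at 0.05. Over all 101 target genes measured, each counted once, 7 were higher in KO and 27 were lower. The shares of all genes were 9.46% and 9.94%, and the targets' median was -0.25. The target lists hold Nr0b2, Nr1h3, Rarb and Esrra too. Without these members, 6 of 97 were higher and 27 were lower.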

How the data were processed

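The liver of 1 KO and 1 WT library was analysed. The authors deposited raw read counts per gene and FPKM scaled by total counts, and the paper's libraries were of poly(A) RNA. The submitters' processing notes name HISAT2 2.0.4, StringTie, edgeR and the build hg38, although the deposited counts carry mouse Ensembl identifiers. The strand used in counting was not given in the sources used here. Loci in the table are GRCm38, and 30 of the 37 members' loci equal those of GENCODE M21.

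Genes were tested where KO and WT counts summed to 10 or more. Log2 fold changes (KO over WT) were taken from counts scaled by TMM (edgeR 4.0.16, R 4.3.3) with a prior count of 0.5, and intervals are exact 95% binomial intervals of the KO share of a gene's counts. Intervals of ratios of 2 genes are Wald intervals on the log scale. A gene was called at 2-fold. Levels are FPKM divided by the TMM factor, 0.812 in KO and 1.23 in WT, with Poisson intervals. No test was possible with 1 library per genotype. Words of 51 bases were compared between GENCODE M21 transcripts. Steps were tested on simulated data. All 37 members were named by rule, with list genes past 2-fold and at least 100 counts, or those whose role a receptor's text needed; some below 100 counts were named after their values were seen. Members and lists were chosen with earlier results of these data known. Alternatives were other scalings (DESeq2 1.42.0 among them), prior counts, count minimums, folds and an assumed spread. Some genes of the lists are not reported here.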

Additional observations from a re-analysis of the deposited data

How the results depend on the processing

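With DESeq2 size factors, upper-quartile scaling, total counts without the mitochondrial genes, a prior count of 5 or a minimum of 1 count, the receptors' counts of calls and their median stayed near the values given. Total counts gave 2 receptors higher and 7 lower (Thrb, Nr5a2, Rxrg and Esrrg besides the 3), a median of -0.61 and 6 coregulators lower. The authors' FPKM gave 2 and 6 receptors (the same but Esrrg), a median of -0.51, and 1 coregulator higher and 5 lower. On these scales the median of all genes moved to -0.60 and -0.54, 85.3% and 87.9% of all calls were lower (51.2% with TMM), and Hnf4a, Rxra, Nr1h2, Nr1h3, Nr2c2, Nr2f2, Nr3c1 and Nr6a1 turned from positive to negative. Nr1h4 and Nr4a2 stayed higher, and Rora, Pparg and Nr4a1 lower, under every scaling. At least 50 counts left 2 receptors higher (Nr1h4 and Nr0b2) and 1 coregulator lower. At least 1.5-fold gave 8 receptors higher and 5 lower, and 6 coregulators higher. With an assumed coefficient of variation of 0.2 between mice and an adjusted p under 0.05 in edgeR's exact test, 1 receptor was lower (Rora), 3 were higher (Nr1h4, Nr0b2 and Nr4a2), and 1 coregulator was higher and 1 lower. With 0.4, 0 receptors were called in either direction, with 1 coregulator higher and 0 lower.

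No paired analysis was possible because there is only 1 library for either genotype, and none could be left out. Median log2 fold changes ran from -0.20 in the shortest 10% of the genes to 0.17 in the longest. Depth limits Esrrg, Nr4a1, Nr4a2 and Nr2f1 most.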
